A study of Mus musculus with 5 samples.

Results

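The retroelement silencing factors described here are 9 genes, Trim28, Setdb1, Cbx5, Ehmt1, Ehmt2, Hells, Mov10, Samhd1 and Trex1. They were chosen by name: every probe that is not a control and whose gene name is one of these was taken, which gave 15 probes of the 41174 on the array, for 9 of its 27962 gene names. Retroelements are repeats that copy themselves through RNA and reverse transcription, and L1 is an autonomous family of this kind that is still active in the mouse. ECAT11, also called L1td1, is an RNA-binding protein of ESCs (embryonic stem cells) whose coding sequence derives from ORF1 of an L1 element. In ESCs, KRAB zinc finger proteins bring Trim28 to retroelements, Trim28 brings the H3K9 methyltransferase Setdb1, and HP1 proteins such as Cbx5 bind the methylated histone. Mov10, Samhd1 and Trex1 act later, on the RNA of an element or on the DNA copied from it. The comparison addressed whether the mRNA of these factors differed between ESCs with and without ECAT11.

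Each of 5 mouse ESC lines had its total RNA hybridized, with Cy3 as the label, to 1 Agilent array of a single colour. The wild-type (WT) lines were RF8, labelled male and of 129sv origin, and #620-2, labelled female and of C57BL6/129sv origin. The ECAT11EGFP/EGFP lines were #620-6, labelled female, and #757-1 and #757-2, both labelled male, all 3 of C57BL6/129sv origin. In these an EGFP-IRES-Puro cassette replaces the ECAT11 coding region on both alleles. The cassette was targeted in RF8 cells, 1 correct clone founded the mice, and the other 4 lines came from blastocysts of crosses between heterozygotes. #620-2 and #620-6 share the number before the hyphen, as do #757-1 and #757-2, and the labels do not say what it stands for. All 5 lines were grown on gelatin with LIF and serum. Slide 1 held RF8, #620-2 and #620-6, and slide 2 held #757-1 and #757-2.

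Fewer probes were well above background on slide 2 (21242 and 22044) than on slide 1 (26362 to 27135), and no spot was saturated. Relative to each array's 75th percentile, the lowest log2 signal well above background was -6.22 to -5.90 on slide 1. On slide 2, which held only ECAT11EGFP/EGFP lines, it was -4.49 and -4.22. All 10 ESC markers checked were well above background in every line. One of them, Zfp42, gave a log2 signal of 4.01 in #620-6 and of 3.87 in #757-2, against at least 6.56 in RF8, #620-2 and #757-1. The summed level of 15 fibroblast and feeder cell markers was 17.2 and 59.6 in RF8 and #620-2, and 62.6, 3.06 and 5.40 in #620-6, #757-1 and #757-2, in units of each array's 75th percentile. Fewer cells of a type and less RNA per cell cannot be told apart in these samples. No probe was named ECAT11 or L1td1, so the disrupted transcript itself is not analysed here.

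A member's value below is its log2 signal relative to the 75th percentile of the array, and a difference is the mean of the ECAT11EGFP/EGFP lines minus the mean of the WT lines. Of the 15 member probes, 11 were well above background on all 5 arrays, at least 1 for each of the 9 genes. The other 4, a further probe each of Setdb1, Ehmt1, Cbx5 and Samhd1, were at background on all 5 arrays and give no level. Limma called 0 of the 11 at an adjusted p under 0.05 and more than 2-fold, and 0.00345% of all 28972 probes kept. At an unadjusted p under 0.05 there was 1 member probe, that of Mov10, which was higher in the ECAT11EGFP/EGFP lines. Of all probes 7.6% passed that threshold, 4.07% higher and 3.53% lower. The groups did not overlap for 5 of the 11, against 23.5% of all probes (11.4% higher and 12.1% lower). The ECAT11EGFP/EGFP lines were above both WT lines for Trim28, Setdb1, Mov10 and 1 probe of Cbx5, and below both for Hells. The median difference over the 11 probes was 0.051, and -0.019 over all probes kept. With RF8 left out the count that did not overlap was 8, and with the lines of slide 1 alone it was 8, where the shares over all probes rose to 55.4% and 67%.

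The first 30 bases of the 60-base probes for Trim28, Setdb1, Cbx5 and Mov10 are given, because the groups did not overlap for 1 probe of each of these genes and because the probes of Setdb1 and of Cbx5 did not give the same picture. Positions are those of the array's annotation, in mouse build mm7, and the sequences read 5′ to 3′.
Trim28, chr7:11617146-11617301, plus strand: gttcaaacagttcaacaagctgactgagga
Setdb1, NM_018877, chr3:95198697-95198756, minus strand: ccgaggctttgctcttaaatcaacccatgg
Setdb1, AF546078, chr3:95213757-95213816, minus strand: actccaaggacctttattttaaagttatgt
Cbx5, XM_001000807, chr15:103179894-103179953, minus strand: ggcatccccagattcttcatgataggtttc
Cbx5, NM_007626, chr15:103187346-103187405, minus strand: gagctaaaggaggaggcagtctctgtcgtt
Cbx5, NM_007626, chr15:103178602-103178608, minus strand: aggcattacgtcattcacatgctgtgtggt
Cbx5, NM_007626, chr15:103178850-103178909, minus strand: accccactaactcgaatgtggtgtcccttt
Mov10, chr3:104587953-104588012, minus strand: agaccattccgccccttcctctgctaggga
The position given for the Trim28 probe spans 156 bases, more than the probe itself, and that of the Cbx5 probe at chr15:103178602-103178608 covers 7. Whether a probe lies in a coding exon or a UTR was not analysed here.

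Trim28, the corepressor that links KRAB zinc finger proteins to Setdb1, gave log2 signals of 5.54 in RF8 and 5.74 in #620-2, and of 5.86, 5.96 and 5.91 in #620-6, #757-1 and #757-2. All ECAT11EGFP/EGFP lines lay above both WT lines, by 0.12 at the closest, which is less than the error of 0.14 that the extraction software gives each of these spots. The WT mean was 5.64 ± 0.14 (SD, n = 2) and the ECAT11EGFP/EGFP mean 5.91 ± 0.052 (SD, n = 3). The difference was 0.27 (SE 0.15), a fold of 1.21 with a 95% interval of 0.913 to 1.59 (limma, adjusted p = 0.799). It was larger than the gap of 0.20 between the WT lines. Over the alternatives it ran from 0.17 without RF8 to 0.37 without #620-2. Because the groups did not overlap, leaving out lines or the arrays of slide 2 could not change its sign.

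Setdb1, the methyltransferase that trimethylates H3K9 at retroelements, showed nearly the same pattern. Its NM_018877 probe, whose letters are printed above, read 1.10 in RF8 and 1.18 in #620-2, and 1.36, 1.47 and 1.44 in the ECAT11EGFP/EGFP lines. The groups were 0.17 apart at the closest, and the difference of 0.28 (SE 0.14) exceeded the gap of 0.086 between the WT lines. The fold was 1.21 with an interval of 0.935 to 1.57, and it did not pass the test (limma, adjusted p = 0.771). The AF546078 probe, designed on a Setdb1 transcript described as lacking the SET domain, was not well above background in any line. Its readings ran from -7.52 to -5.83, and no fold is given for it.

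Cbx5 encodes HP1α, which binds methylated H3K9, and was the member that varied most among the lines. The XM_001000807 probe was taken as the brightest of its 4 because its mean over all 5 lines was the highest. In both WT lines the probe at chr15:103187346-103187405 read higher, so the choice rested on the ECAT11EGFP/EGFP lines that are compared. The XM_001000807 probe read 1.23 in RF8 and 1.46 in #620-2, and 1.56, 2.30 and 1.96 in #620-6, #757-1 and #757-2. The values of the 2 lines on slide 2 stood above those of the 3 lines on slide 1, whose values lay within 0.32 of each other. The difference between genotypes was 0.59 (SE 0.27), a fold of 1.51 with an interval of 0.922 to 2.47 (limma, adjusted p = 0.731). With the slide as a block, or within slide 1, the difference was 0.21.

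The remaining Cbx5 probes did not show it. The probe at chr15:103187346-103187405 read 1.44 and 1.58 in the WT lines and 1.43, 1.63 and 1.51 in the ECAT11EGFP/EGFP lines. The probe at chr15:103178602-103178608 read 1.07 and 1.04, and then 0.81, 1.29 and 1.11. For both the groups overlapped and the differences were 0.018 and 0.020 (limma, adjusted p = 0.994 and 0.995). The fourth probe was at background on all arrays, from -8.49 to -6.48. The mean over the 3 measured probes of the gene differed by 0.21 between genotypes. Why probes of one gene differ was not tested. Among 18573 probes of other named genes, each centred on its own mean over the 5 lines, the 3 with profiles most like the XM_001000807 probe were those of Atp8a1, Zfp708 and Hmgn5, with root mean square differences of 0.050, 0.077 and 0.077 (log2) over the 5 lines.

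**Figure D1:**
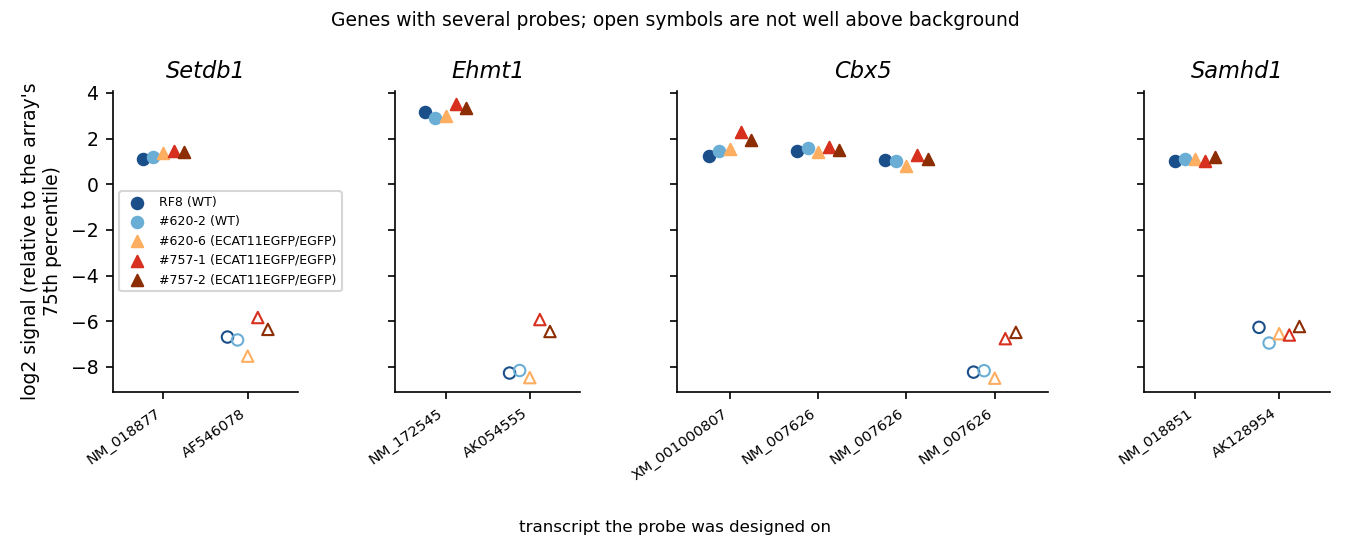
Log2 signal (relative to the array's 75th percentile) of every probe of the 4 member genes with more than 1 probe, by ESC line. Circles are WT lines and triangles ECAT11EGFP/EGFP lines, open symbols are not well above background, and the 3 measured Cbx5 probes lie between 0.81 and 2.30 while the 4 probes at background lie at -5.83 or lower.

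Ehmt1 and Ehmt2 (GLP and G9a) form a complex that places the lower methylation states on H3K9. The brighter Ehmt1 probe read 3.19 in RF8 and 2.89 in #620-2, and 2.98, 3.51 and 3.34 in #620-6, #757-1 and #757-2. Both lines labelled female were lower than the 3 lines labelled male, and the genotypes overlapped. The difference was 0.24 (SE 0.23), with a fold interval of 0.777 to 1.79 (limma, adjusted p = 0.900), and turned to -0.055 with the slide as a block. The other Ehmt1 probe was at background, from -8.46 to -5.92.

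Ehmt2 read 4.53 in RF8 and 5.09 in #620-2, and 4.94, 4.80 and 4.55 in the ECAT11EGFP/EGFP lines. RF8 and #757-2 were the lowest and #620-2 the highest, so the WT lines enclosed all ECAT11EGFP/EGFP lines. The gap of 0.56 between the WT lines exceeded the difference between genotypes, -0.048 (SE 0.25, limma, adjusted p = 0.985). The fold was 0.967 with an interval of 0.618 to 1.51.

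Hells (LSH), a chromatin remodeller needed for DNA methylation of repeats, was the only member with all ECAT11EGFP/EGFP lines below both WT lines. It read 3.74 in RF8 and 3.93 in #620-2, and 3.70, 3.69 and 3.63 in #620-6, #757-1 and #757-2. RF8 and #620-6 were 0.036 apart, less than the error of 0.14 of a spot, and with normexp background correction the groups overlapped. The difference of -0.16 (SE 0.15) was smaller than the gap of 0.19 between the WT lines, with a fold of 0.892 and an interval of 0.678 to 1.17 (limma, adjusted p = 0.899). It was -0.26 without RF8 and -0.068 without #620-2.

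Mov10, an RNA helicase found with L1 ribonucleoprotein particles, had the smallest p of the members. It read 2.40 in RF8 and 2.16 in #620-2, and 2.74, 2.64 and 2.71 in the ECAT11EGFP/EGFP lines. These 3 lay within 0.097 of each other and at least 0.24 above both WT lines. The difference was 0.42 (SE 0.16), a fold of 1.34 with an interval of 1.00 to 1.78. The unadjusted p of 0.0485 became 0.653 after adjustment over all probes (limma). Over the alternatives the difference stayed between 0.30 and 0.54.

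Samhd1, which hydrolyses the nucleotides that reverse transcription needs, was nearly level. It read 1.02 in RF8 and 1.09 in #620-2, and 1.09, 1.01 and 1.22 in #620-6, #757-1 and #757-2. The groups overlapped, the whole range was 0.20, and the difference was 0.051 (SE 0.15, limma, adjusted p = 0.979). The fold interval ran from 0.786 to 1.37. The AK128954 probe of Samhd1 was at background, from -6.95 to -6.23.

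Trex1, an exonuclease that degrades DNA in the cytosol, read -1.57 in RF8 and -1.20 in #620-2, and -1.29, -1.42 and -1.43 in the ECAT11EGFP/EGFP lines. The WT lines enclosed the others, as for Ehmt2. The difference was 0.0064 (SE 0.18), with a fold of 1.00 and an interval of 0.721 to 1.40 (limma, adjusted p = 0.999). In RefSeq Trex1 overlaps the read-through gene Atrip-trex1, Setdb1 overlaps Cers2 and Trim28 overlaps Gm31649, and signal of such neighbours was not separated here.

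**Figure D2:**
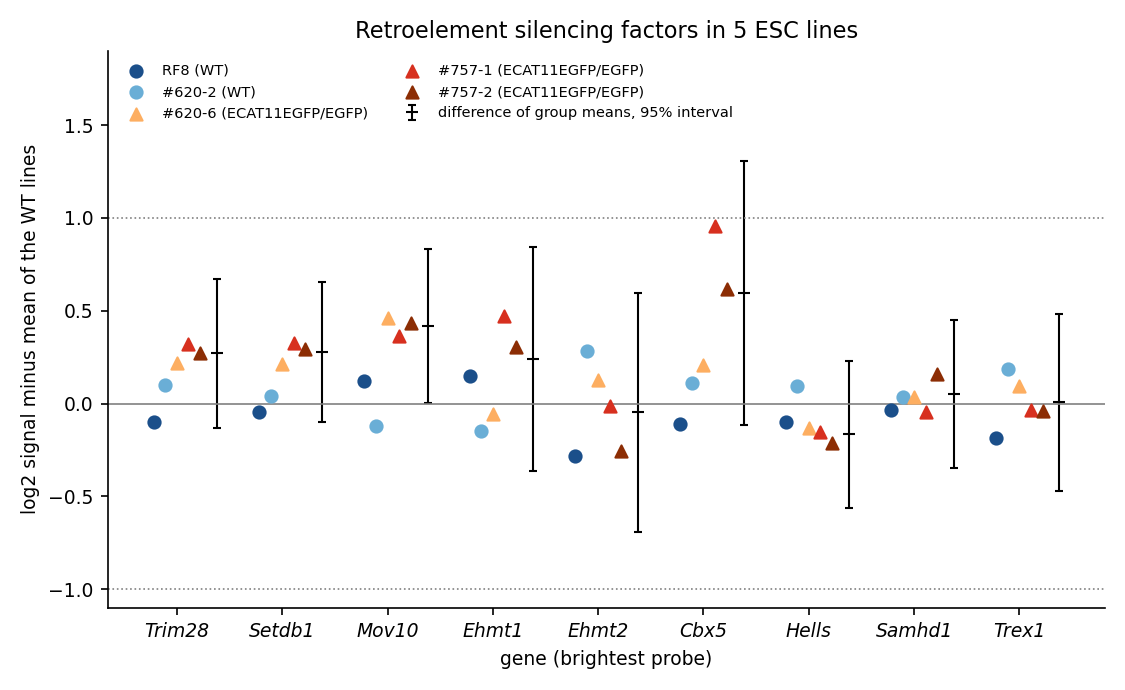
Log2 signal of the brightest probe of each of the 9 members in each ESC line, minus the mean of the WT lines. Circles are WT lines and triangles ECAT11EGFP/EGFP lines. Bars are the difference of the group means with its 95% interval from limma (2 against 3 lines), and dotted lines mark 2-fold. The interval passes 2-fold for Cbx5 alone, by its XM_001000807 probe, where #757-1 and #757-2 are the highest points.

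The 95% interval lay within 2-fold either way for 8 of the 9 brightest probes, the exception being Cbx5, and for 10 of the 11 measured probes. For 4 of the 11 the difference exceeded the gap between the WT lines (Trim28, Setdb1, Mov10 and the XM_001000807 probe of Cbx5). They are the same probes that were higher without overlap. The share of all probes was computed neither for the intervals nor for this gap. The median size of the difference was 0.16 over the member probes and 0.22 over all probes kept. The members also differed little from line to line. The median range over the 5 lines was 0.42 for the member probes and 0.77 over all probes kept, which include many dimmer ones. Set against only the 20617 probes that every array measured well above background, 9 of the 11 ranges were below the median. Samhd1 and a Cbx5 probe had ranges at percentiles 6.28 and 5.98, and the XM_001000807 probe of Cbx5 was at 79.3. Over the 10 pairs of lines, which share lines, 1 member value was more than 2-fold apart, that of the XM_001000807 probe between RF8 and #757-1, by 1.07. Of all probes, 1.82% to 14.2% were more than 2-fold apart in a pair. The members' median difference within a pair ran from 0.12, between #757-1 and #757-2, to 0.26, between RF8 and #620-6.

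The members' partners in H3K9 methylation and heterochromatin were followed with a list of 29 genes, among them the other HP1 proteins, further methyltransferases and the chromatin assembly factor. Of the 60 probes kept, limma called 0 and the median difference was -0.014. The differences of the 60 ran from -0.72 to 1.82, with 1 over 2-fold. At an unadjusted p under 0.05 none was higher and 2 were lower, 3.33% of the 60 against 7.6% of all probes. Among these was 1 of the 3 probes of Chd4 (-0.44), a remodeller of the NuRD complex, whose other probes differed by -0.17 and -0.064. The other of the 2 lower probes, not named here, had the smaller adjusted p (limma, 0.547 against 0.653 for Chd4). Chd4 was singled out once its values were known. The groups did not overlap for 28.3% of the 60, of which 7 were higher and 10 lower. The other HP1 genes Cbx1 and Cbx3 differed by 0.14 and -0.028, with overlapping groups (limma, adjusted p = 0.951 and 0.992). Zfp809, a KRAB zinc finger protein that recruits Trim28 to proviruses, differed by 0.023 (limma, adjusted p = 0.995).

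Atf7ip, which stabilises Setdb1, read 1.93 and 1.98 in the WT lines and 2.03, 2.32 and 2.31 in the ECAT11EGFP/EGFP lines by its brightest probe. The difference was 0.26 (SE 0.17) and the groups did not overlap (limma, adjusted p = 0.836), although they did overlap for its other 3 probes. With the slide as a block, or within slide 1, the difference was 0.069. Suv39h1, a methyltransferase of pericentric heterochromatin, read -0.33 in RF8 and -0.081 in #620-2, and -1.14, -0.50 and -0.89 in #620-6, #757-1 and #757-2. All ECAT11EGFP/EGFP lines were lower than both WT lines, with a difference of -0.64 (SE 0.25, limma, adjusted p = 0.665).

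The second list held 24 partners of Mov10, Samhd1 and Trex1 in RNA and cDNA restriction, with 43 probes kept. Limma called 0, the median difference was -0.055, and the groups did not overlap for 23.3%. At an unadjusted p under 0.05 there were 6 probes higher, 3 of Zc3hav1, 2 of Rnaseh2b and 1 of Dgcr8, and 1 lower, of Apobec1. They made up 16.3% of the 43, against 7.6% of all probes, and several probes of one gene are not separate genes. Rnaseh2b and Dgcr8 were likewise singled out once their values were known. Rnaseh2b, a subunit of the enzyme that removes RNA from RNA and DNA hybrids, differed by 0.69 and 0.52 by its pair of probes (limma, adjusted p = 0.570 and 0.613).

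Zc3hav1 (ZAP), which binds CpG-rich RNA of viruses and L1 and leads to its decay, showed the largest difference of this list. Its brightest probe, at chr6:38246667-38246726, read -0.077 in RF8 and 0.13 in #620-2, and 2.27, 1.39 and 1.99 in #620-6, #757-1 and #757-2. All ECAT11EGFP/EGFP lines stood at least 1.26 above both WT lines, which lay 0.20 apart. The difference was 1.86 (SE 0.31), a fold of 3.63 with an interval of 2.07 to 6.36, and it did not pass adjustment over all probes (limma, unadjusted p = 0.0023, adjusted p = 0.373). Another probe, with a position given as chr6:38247323-38250662, read -3.26 and -2.99 in the WT lines and -0.88, -1.75 and -1.27 in the ECAT11EGFP/EGFP lines, a difference of 1.82 (limma, adjusted p = 0.377). One more probe, a dim one, was well above background on 2 arrays. The brightest probe's difference stayed between 1.67 and 2.25 over the alternatives, with adjusted p between 0.203 and 0.980.

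**Figure D3:**
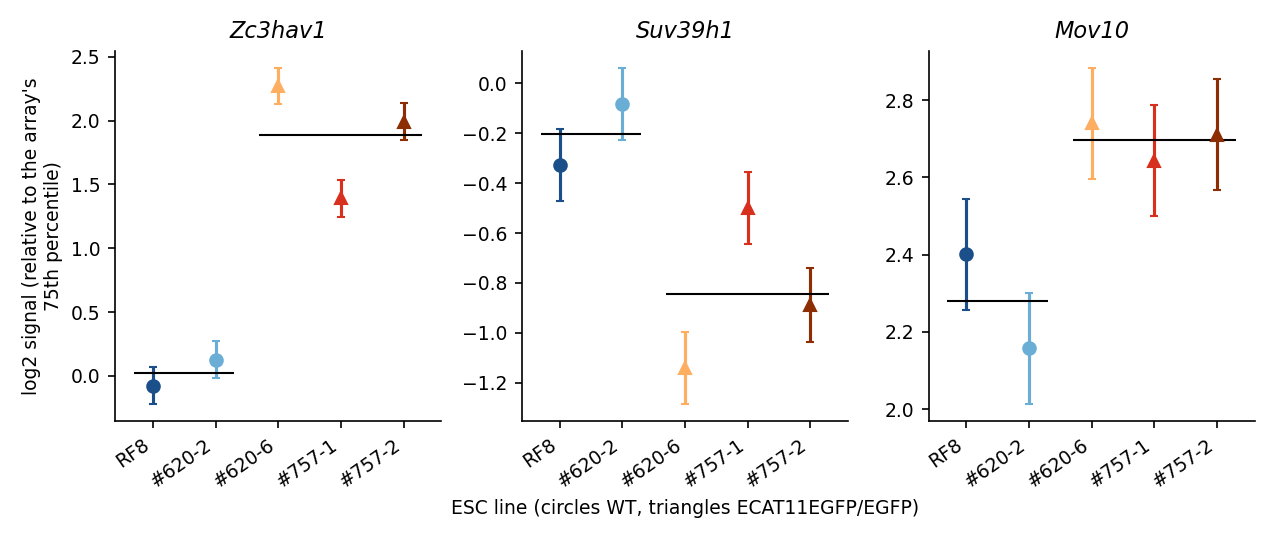
Log2 signal (relative to the array's 75th percentile) of Zc3hav1, Suv39h1 and Mov10 by ESC line, each panel with its own scale. Circles are WT lines, triangles ECAT11EGFP/EGFP lines, vertical bars the error the extraction software gives the spot and horizontal lines the group means; the groups do not overlap in any panel, and they are 1.86 apart for Zc3hav1, -0.64 for Suv39h1 and 0.42 for Mov10.

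Other genes of that list were closer between genotypes or less regular. Dicer1, which makes small RNAs, differed by -0.058 and Adar, which edits double-stranded RNA, by -0.079, both with overlapping groups (limma, adjusted p = 0.981 and 0.979). Apobec3, a cytidine deaminase that restricts retroelements, differed by -0.22 by its brightest probe with overlapping groups (limma, adjusted p = 0.912), and by -0.018 without #620-2, -0.43 without RF8, -0.10 with normexp background correction and -0.086 with the slide as a block. Another Apobec3 probe, at chr15:79983239-79989623, read -1.60 and -1.94 in the WT lines and -3.64, -4.26 and -2.02 in the ECAT11EGFP/EGFP lines, a difference of -1.54 (limma, adjusted p = 0.741). Its groups did not overlap, but #620-2 and #757-2 were 0.080 apart. The dimmer probe of Apobec1 was well above background on slide 1 only, where it read -4.12 in RF8, -4.09 in #620-2 and -4.54 in #620-6. Its brightest probe differed by -0.64 with overlapping groups (limma, adjusted p = 0.876), and by 0.14 without RF8. Tex19.1 is a factor of germ cells and ESCs that restrains L1. It read 5.11 and 4.65 in the WT lines and 6.37, 4.76 and 5.41 in the ECAT11EGFP/EGFP lines. The groups overlapped, with a difference of 0.64 (SE 0.52, limma, adjusted p = 0.877). That difference was 1.49 with the slide as a block, where it rests on #620-6, and 0.21 without #620-6.

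The piRNA pathway silences retroelements in germ cells, and 17 probes of its 14 listed genes were kept. Limma called 0, the median difference was -0.019, and the groups did not overlap for 11.8%. At an unadjusted p under 0.05 there was 1 probe, of Piwil4, which is 5.88% of the 17 against 7.6% of all probes. That count was 8 of 17 with the slide as a block, against 8.94% of all probes, and 6 of 17 within slide 1, against 5.38%, where #620-6 is the only ECAT11EGFP/EGFP line behind the difference. Piwil4, an Argonaute protein of this pathway, read -1.27 in RF8 and -1.38 in #620-2, and -1.97, -2.98 and -2.18 in #620-6, #757-1 and #757-2. The ECAT11EGFP/EGFP lines were lower by 0.59 at the closest, and the difference was -1.05 (SE 0.35, limma, adjusted p = 0.598). With the slide as a block it was -0.64.

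Interferon-responsive genes were followed because nucleic acids of retroelements, which Trex1, Samhd1 and Adar limit, can induce them. Of 24 genes listed 20 had a kept probe. Limma called 0 of the 29 probes, the median difference was -0.35, and it was -0.058 over those that all 5 arrays measured well above background. At an unadjusted p under 0.05 there were 1 higher, of Rsad2, and 4 lower, among them 1 of Ifit2. They made up 17.2% of the 29, against 7.6% of all probes. Rsad2 was also singled out in this way, and its probe was well above background in #620-6 alone. The brightest Ifit2 probe was not the one counted (limma, unadjusted p = 0.0513). It read -2.82 and -3.88 in the WT lines and -4.31, -4.19 and -5.09 in the ECAT11EGFP/EGFP lines. It was not well above background in #757-2, and differed by -1.18 (limma, adjusted p = 0.661). That difference was -0.43 with normexp, -0.65 without RF8 and -1.70 without #620-2. The groups did not overlap for 24.1% of the probes. The summed level over 23 genes of the list was 28.2 in RF8 and 25.7 in #620-2. It was 30.4, 40.1 and 41.2 in #620-6, #757-1 and #757-2, in the units of the fibroblast marker sums. By this sum all ECAT11EGFP/EGFP lines were above both WT lines, opposite to the median over probes. The mean log2 signal overlapped, at -2.55 and -3.09 in the WT lines and -2.87, -2.94 and -2.64 in the others. The sum was not tested.

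Elements themselves were seen only through probes whose description names a retroelement. Of 25 such probes, 9 were kept and 16 were at background on all arrays. Of the 16 described as L1, 6 were kept and 2 were well above background in all lines. The probe of the cluster TC1419971 read -1.85 and -1.69 in the WT lines and -1.87, -2.19 and -2.25 in the ECAT11EGFP/EGFP lines, a difference of -0.33 (limma, adjusted p = 0.802), and #620-6 was 0.017 below RF8. The probe of TC1438641 read -2.02 and -1.36, and then -1.44, -2.06 and -2.10, a difference of -0.17 (limma, adjusted p = 0.967) with overlapping groups. None of the 9 had an unadjusted p under 0.05, limma called 0, and their median difference was -0.29. It was -0.033 with normexp, and turned to 0.076 with the slide as a block or within slide 1 and to 0.95 with no filter on dim probes. A probe measures the transcripts it matches and not the L1 family as a whole.

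**Figure D4:**
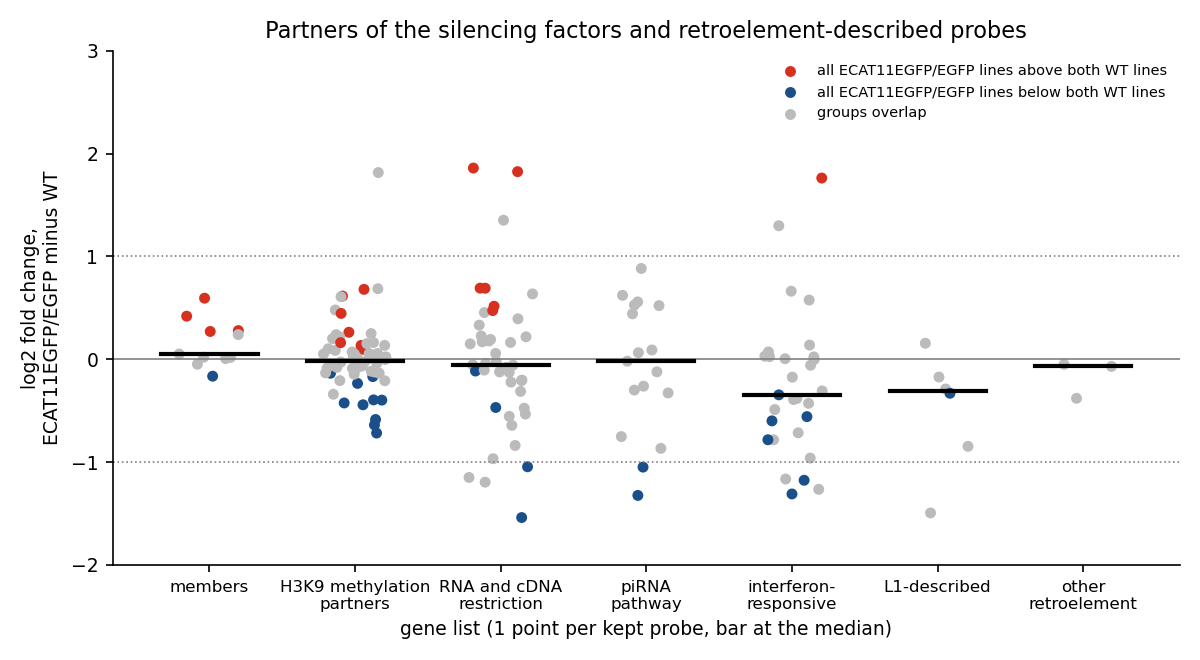
Log2 fold change, ECAT11EGFP/EGFP minus WT, of each kept probe of the members and of the lists, with a bar at the list's median. Red and blue points are probes with all ECAT11EGFP/EGFP lines above or below both WT lines, grey points overlap, and the dotted lines mark 2-fold: all 11 member points lie between -0.16 and 0.59, and the 2 highest red points of RNA and cDNA restriction are Zc3hav1.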

How the data were processed

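mRNA levels of 5 mouse ESC lines were measured on one-colour Agilent arrays, 1 for each line. The authors extracted the scans with Feature Extraction 9.5.3.1 and deposited background-corrected intensities per spot, not normalized between arrays, with probe positions in mm7. A log2 table that the authors deposited as well served as an alternative. Control spots (1639 of 45018) and spots marked as non-uniform or as outliers (0.316% to 0.355%) were left out, intensities were divided by the array's 75th percentile, which lay between 688 and 794, and log2 was taken. Spots of one probe were averaged, and the filter kept the 28972 of 41174 probes that were Present on 1 array or more. Genotypes were compared over all kept probes with limma 3.58.1 in R 4.3.3, with Benjamini-Hochberg adjustment. Calls were made at an adjusted p under 0.05 and over 2-fold. A gene was described by its brightest probe, the one with the highest mean over the 5 arrays, its others beside it. Lines were the replicates, with 1 culture each, so p-values measure the spread between lines. With 2 lines against 3, no exact permutation test gives p under 0.1. The number of arrays limits the precision.

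RefSeq names (GRCm38.p6) found no further probe of a member. The members, lists and tests were chosen with earlier results of these data known. Named were all members, 10 fixed partner genes, and partners with groups that did not overlap and a log2 fold change over 1 in size, well above background on all arrays of a group. Chd4, Rnaseh2b, Dgcr8 and Rsad2 fall outside these conditions and were named after their values were known. For a member with a range over 1, the 3 most similar probes were named.

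Alternatives were the deposited log2 table, normexp background correction (offset 50), quantile normalization, dim probes all kept or filtered more strictly, marked spots kept, the slide as a block, slide 1 alone, the sex label as a covariate, the methods' t-test, a variance trend, the mean of a gene's probes, and each line left out in turn. The counts of groups that do not overlap were recomputed under alternatives chosen after seeing the data. The code was tested on simulated data. Figures were drawn with matplotlib 3.10.9. Exon and UTR positions and proteins are not analysed here. Some genes of the lists are counted but not reported here by name.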

Additional observations from a re-analysis of the deposited data

Results flagged for a closer look

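Ehmt2 and Trex1 differed between genotypes in opposite directions within the sex labels. Between the lines labelled female, #620-6 minus #620-2, the log2 difference was -0.16 for Ehmt2 and -0.087 for Trex1. Between the lines labelled male, #757-1 or #757-2 minus RF8, it was 0.024 to 0.27 for Ehmt2 and 0.14 to 0.15 for Trex1. Tested as an interaction, the difference between the labels was -0.30 for Ehmt2 and -0.23 for Trex1, and neither passed (limma, adjusted p = 0.777 and 0.785). The lines labelled male also differ in slide and strain, and the part of these was not tested.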

How the results depend on the processing

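Where at least 2 lines of each genotype entered the fit, limma and the methods' t-test called 0 member probes. They also called 0 probes of each partner list and of the retroelement-described probes. Each of these fits called 0 or 1 of all probes, so 0 calls was the outcome for nearly the whole array and is not particular to the members. At an unadjusted p under 0.05 there were 0 to 2 member probes, 2 with normexp, a variance trend or the methods' t-test, where 6.46%, 7.06% and 7.31% of all probes passed (4.2% to 13.4% over the alternatives), and none of the 11 was more than 2-fold apart. Differences of Trim28, Setdb1, Mov10, Hells and the XM_001000807 probe of Cbx5 kept their sign under every alternative. In the main fit their groups did not overlap, so leaving out a line, slide 1 alone or the slide as a block could not change it. The other measured Cbx5 probes were lower in #620-6 than in both WT lines of slide 1. For the probe at chr15:103187346-103187405 this was 1.435 against 1.439 in RF8, closer than the spot error of 0.14. None of the 9 members passed the adjusted threshold under any alternative. The median over the member probes was 0.18 with no filter on dim probes and 0.034 to 0.19 with 1 line left out, highest without #620-2. Groups did not overlap for 8 member probes within slide 1, against 67% of all probes, and for 5 to 8 with 1 line left out, against 28.3% to 57.4%, since fewer lines overlap less often. The unadjusted counts ran from 0 to 6 of the H3K9 list, from 3 to 10 of the RNA and cDNA list, from 0 to 8 of the piRNA list, from 2 to 7 of the interferon-responsive list and from 0 to 1 of the retroelement-described probes. The median of the RNA and cDNA restriction list was -0.073 with quantile normalization, -0.025 with no filter, 0.016 with the stricter filter, 0.028 with the slide as a block or within slide 1, and -0.053 to 0.13 with 1 line left out. The median of the piRNA list ran from -0.24 to 0.080 with 1 line left out. That of the interferon-responsive list was -0.076 with normexp, 0.0051 with no filter, -0.058 with the stricter filter, -0.13 with the slide as a block or within slide 1, and -0.37 to -0.0030 with 1 line left out. That of the retroelement-described probes was -0.033 with normexp, 0.95 with no filter, and 0.076 with the slide as a block or within slide 1. The cause was not tested.

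Small differences changed sign. With the slide as a block or within slide 1, Ehmt1 was -0.055 and Ehmt2 0.13, and Ehmt2 was 0.017 with the sex label as a covariate. Trex1 was -0.00038 in the deposited log2 table, and Zfp809 -0.0047 with normexp. With 1 line left out the range was -0.33 to 0.23 for Ehmt2, -0.0037 to 0.099 for Samhd1, -0.18 to 0.19 for Trex1, -0.37 to 0.22 for Adar, -1.43 to 0.14 for Apobec1, -0.075 to 0.35 for Cbx1, -0.12 to 0.12 for Cbx3, -0.32 to 0.20 for Dicer1 and -0.16 to 0.18 for Zfp809. No paired analysis was possible because the labels give the lines no replicate numbers, and #620-2 and #620-6 are the only 2 lines of different genotype that share the number before the hyphen. Slide 2 held only ECAT11EGFP/EGFP lines, so a fit with the slide as a block takes its difference from #620-6 alone, a single line assumed to vary like the others. Signals near background, as for 4 member probes and most retroelement-described probes, set a limit that no normalization removes.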
